A study of Mus musculus with 17 samples.

Results

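*Pmp22*, *Emp1*, *Emp2* and *Emp3* are a small family of related genes, and their RNA levels were followed in mouse embryonic stem cells treated with RA. The 4 genes were taken by symbol from a table of 54532 genes, and each symbol is listed once. They were chosen by their TPM and its changes over the 6 groups of these same samples, so their own values are described here without a test. All 4 passed the filter that 21871 genes passed, which asked for at least 1 TPM, a read number scaled for gene length and for the total of the library, in at least 2 libraries.

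The cells were R1, a mouse embryonic stem cell line, wild-type (WT) or with a knockout of *Usb1*, whose protein trims the 3' end of U6 snRNA, collected at day 0, 1 or 3 of RA treatment. There were 17 libraries of total RNA, with 2 for wild-type cells at day 0 and 3 for each of the other 5 groups. All knockout libraries came from 1 line, so a difference between clones cannot be told apart from the knockout. RA, a vitamin A derivative, acts through nuclear receptors and makes these cells leave pluripotency.

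The labels were checked against marker genes. *Usb1* had group means of 33.8 to 52.5 TPM over the wild-type days and of 16.2 to 20.2 TPM over the knockout days, so the knockout libraries were lower without being at 0. Embryonic stem cell markers fell by day 3, with 7 of 8 called lower in each genotype, and 7 of 7 RA targets were called higher in each. Of all tested genes, 9.68% and 8.04% were called lower in wild-type and knockout cells, and 16.1% and 13.8% higher. Reads on genes, recovered from TPM, ranged from 15404379 to 17300186 over the libraries. Wild-type replicate 1 at day 0 stood apart, with 239 genes of a single read against 1224 to 2467 in the others. The 1224 were in knockout replicate 1 at day 3, and wild-type replicate 2 at day 0 had 1352. All further libraries had at least 2150, so both wild-type libraries at day 0 were low in such genes. The differences of the 4 genes from wild-type day 0 are given with and without replicate 1, which leaves replicate 2 as it is.

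The proteins of this family are small glycoproteins that cross the membrane with 4 helices and share a fold with the claudins of tight junctions. *Pmp22* encodes peripheral myelin protein 22, a main protein of compact myelin in peripheral nerve. Altered dosage of the human gene causes inherited neuropathies, and the protein is also found at epithelial junctions. *Emp1*, *Emp2* and *Emp3* encode the epithelial membrane proteins. EMP2 is known for effects on integrins and caveolins at the cell surface, and EMP1 and EMP3 are found in many epithelial and mesenchymal cells.

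All positions are on GRCm38. *Pmp22* (ENSMUSG00000018217) lies on chromosome 11 from 63128982 to 63159547 on the + strand, and *Emp1* (ENSMUSG00000030208) on chromosome 6 from 135362545 to 135383173 on the + strand. *Emp2* (ENSMUSG00000022505) lies on chromosome 16 from 10281749 to 10313968 and *Emp3* (ENSMUSG00000040212) on chromosome 7 from 45918023 to 45921404, both on the - strand. The 4 genes are thus on 4 chromosomes, and no annotated gene overlaps any of them. *Emp3* is the shortest, with 1071 bases of exon against 2354 for *Pmp22*, 5935 for *Emp1* and 8644 for *Emp2*, so a given TPM rests on the fewest reads for *Emp3*.

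The start of the coding sequence shows how far the family is related and how far the reads of its members can be told apart. The first 96 coding bases of each gene, from the GENCODE M21 transcripts, are given from the ATG on. Capitals mark the 30 bases that are identical in all 4 genes.
*Pmp22*: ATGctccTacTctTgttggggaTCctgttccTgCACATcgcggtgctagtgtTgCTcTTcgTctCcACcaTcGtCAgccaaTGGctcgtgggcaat
*Emp1*: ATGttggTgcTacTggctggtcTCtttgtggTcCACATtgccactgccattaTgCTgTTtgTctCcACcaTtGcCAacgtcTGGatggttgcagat
*Emp2*: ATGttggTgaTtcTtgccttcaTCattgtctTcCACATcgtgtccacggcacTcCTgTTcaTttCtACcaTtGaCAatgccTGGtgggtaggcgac
*Emp3*: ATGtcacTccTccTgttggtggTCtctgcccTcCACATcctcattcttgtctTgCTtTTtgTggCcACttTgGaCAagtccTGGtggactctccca
The shared bases are scattered, and the longest run without a break is 5 bases. Over the whole coding sequence, which is 483 bases in *Pmp22* and *Emp1*, 519 in *Emp2* and 492 in *Emp3*, *Emp1* and *Emp2* were the closest pair with 68.1% identical bases in the alignment. The other pairs were at 57.9% to 60.9%, with *Emp2* and *Emp3* the least alike. The longest exact run shared by the annotated transcripts of a pair was 22 bases, between *Pmp22* and *Emp2*, so only short stretches could be shared by reads of different members.

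*Pmp22* was low in untreated cells, with 39.1% of the tested genes below its wild-type mean, and high after 3 days of RA, with 98.9% below. In wild-type cells at day 0 it stood at 5.42 TPM in replicate 1 and 1.06 TPM in replicate 2, which are 61 and 11 reads. At day 1 the wild-type libraries were at 29.7, 28.7 and 27.2 TPM. At day 3 they were at 488, 485 and 482 TPM. No library of a given day overlapped with those of another day, and replicates were close to each other at day 1 and day 3 but not at day 0.

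On the log2(TPM + 1) scale, on which all differences are given here and which understates the change of low genes, *Pmp22* in wild-type cells was higher than at day 0 by 3.02 (SE 0.33) at day 1 and by 7.06 (SE 0.33) at day 3. Only 5 of the 21871 tested genes had a larger difference at day 3. The mean of 485 ± 2.96 TPM (SD, n = 3) at day 3 was 89.4 times the level of wild-type replicate 1 at day 0 and 459.7 times that of replicate 2. The size of the ratio thus depended on the library at day 0, while both gave the same direction. Without replicate 1 the differences from day 0 were 3.84 at day 1 and 7.89 at day 3. By level at day 3, *Pmp22* held place 250 among the tested genes.

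The knockout libraries had less *Pmp22* at day 1 and, on few reads, at day 0. At day 0 the knockout libraries were at 0.828, 0.0889 and 0.553 TPM, which are 9, 1 and 6 reads. At day 1 they were at 11.5, 8.44 and 10.7 TPM, and at day 3 at 555, 540.5 and 542 TPM. At day 0 and day 1 each knockout library was below each wild-type library, and at day 3 each was above. The nearest libraries at day 0 were knockout replicate 1 with 9 reads and wild-type replicate 2 with 11. Their intervals from counting error alone overlapped, at 0.379 to 1.57 TPM and 0.527 to 1.89 TPM. Knockout cells at day 0 had the lowest level of the 6 groups and knockout cells at day 3 the highest, with wild-type day 3, wild-type day 1, knockout day 1 and wild-type day 0 in descending order between them, and no neighbours in this order overlapped.

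The difference between knockout and wild-type cells was -1.32 (SE 0.33) at day 0, -1.41 (SE 0.29) at day 1 and 0.17 (SE 0.29) at day 3. The SE comes from 1 spread per gene over all groups, and replicates differed most at day 0, so the value at day 3 is within its SE although the libraries did not overlap. The ratio of the means was 0.358 at day 1 and 1.13 at day 3. The value at day 0 was -0.50 without wild-type replicate 1 and -2.38 with a pseudocount of 0.1, so its size is not well known. From day 1 to day 3 the level was higher by 4.04 (SE 0.29) in wild-type and by 5.62 (SE 0.29) in knockout cells.

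**Figure D1:**
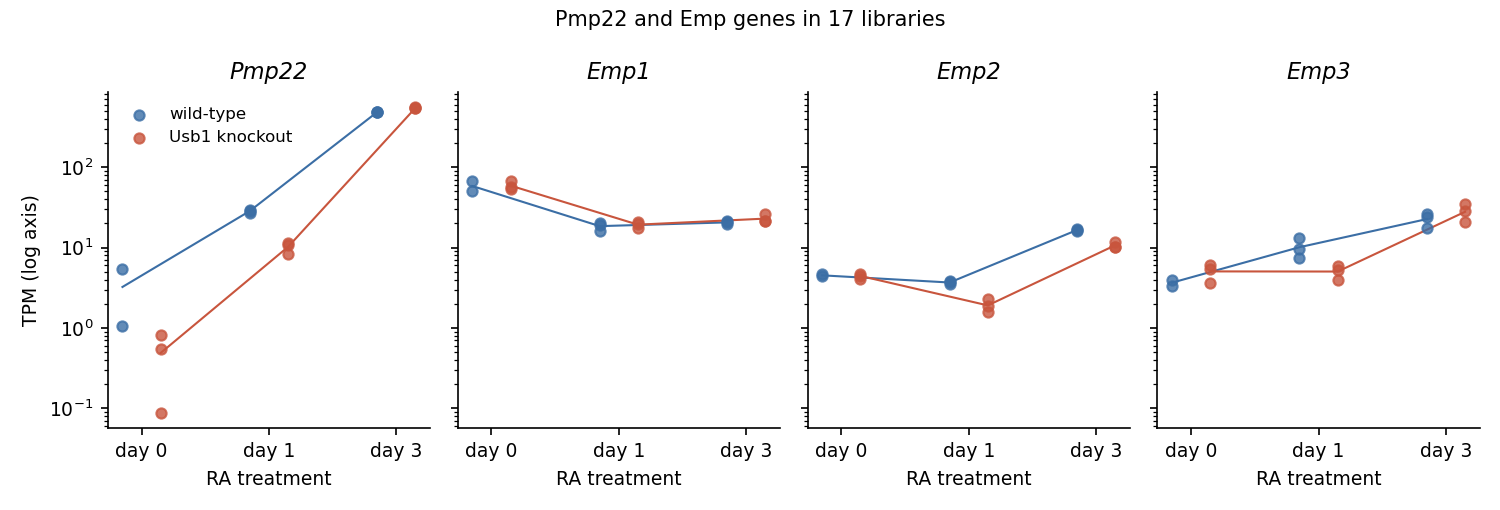
TPM (log axis) of the 4 genes at day 0, 1 and 3 of RA treatment, with a point for each of the 17 libraries and a line through the group means, in wild-type (blue) and *Usb1* knockout (red) cells. *Pmp22* goes from at most 5.42 TPM at day 0 to at least 482 TPM at day 3, while *Emp1* is highest at day 0.

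*Emp1* had the opposite course and was the main member of the family in untreated cells. In wild-type cells it was at 66.3 and 50.2 TPM at day 0, at 20.2, 19.0 and 16.3 TPM at day 1, and by day 3 at 20.8, 19.4 and 21.6 TPM. In knockout cells it was at 67.1, 55.9 and 53.7 TPM at day 0, at 20.8, 17.6 and 19.4 TPM at day 1, and by day 3 at 21.5, 21.4 and 25.9 TPM. The libraries at day 0 were above all those at day 1 and day 3 in each genotype, and the genotypes overlapped at each day.

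The step took place within the first day. *Emp1* differed from day 0 by -1.60 (SE 0.14) at day 1 in wild-type cells and by -1.56 (SE 0.12) in knockout cells. At day 3 the differences from day 0 were -1.45 (SE 0.14) and -1.32 (SE 0.12). Between knockout and wild-type cells they were 0.02 (SE 0.14), 0.06 (SE 0.12) and 0.15 (SE 0.12) at day 0, 1 and 3. The values at day 0 and day 1 changed sign under some settings. Without wild-type replicate 1 at day 0 the wild-type differences from day 0 were -1.40 and -1.25, and that between the genotypes at day 0 was 0.22. In the order of levels, only the step from day 0 to the later groups separated neighbours.

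*Emp2* was low until day 1 and higher at day 3, and it was lower in knockout cells at both days of treatment. In wild-type cells it was at 4.65 and 4.39 TPM at day 0, at 3.79, 3.73 and 3.52 TPM at day 1, and by day 3 at 16.6, 16.9 and 16.1 TPM. In knockout cells it was at 4.76, 4.09 and 4.47 TPM at day 0, at 2.28, 1.85 and 1.60 TPM at day 1, and by day 3 at 10.3, 10.2 and 11.6 TPM. The genotypes overlapped at day 0 and were apart at day 1 and day 3, with the knockout below.

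From day 0 to day 1 *Emp2* differed by -0.24 (SE 0.13) in wild-type and by -0.91 (SE 0.11) in knockout cells. From day 0 to day 3 it differed by 1.67 (SE 0.13) and 1.10 (SE 0.11). Without wild-type replicate 1 at day 0, the wild-type values were -0.20 and 1.70, and the genotypes at day 0 differed by 0.01. Knockout minus wild-type was -0.02 (SE 0.13), -0.69 (SE 0.11) and -0.59 (SE 0.11) at day 0, 1 and 3. The median of all tested genes was itself 0.17 for wild-type day 1 against day 0, where *Emp2* was at -0.42 with libraries scaled to equal medians, and -0.13 for knockout minus wild-type at day 1, where *Emp2* was at -0.48 with that scaling.

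*Emp3* was higher at day 3 than at day 0 in each genotype, and at day 1 it was higher in wild-type cells only. In wild-type cells it was at 3.32 and 4.01 TPM at day 0, at 7.39, 13.3 and 9.66 TPM at day 1, and by day 3 at 26.0, 24.1 and 17.8 TPM. In knockout cells it was at 3.64, 6.06 and 5.47 TPM at day 0, at 5.94, 3.97 and 5.197 TPM at day 1, and by day 3 at 28.2, 21.04 and 34.4 TPM. The genotypes overlapped at day 0 and day 3 and were apart at day 1 only. These values rest on 17 to 173 reads a library.

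At day 1 *Emp3* differed from day 0 by 1.22 (SE 0.26) in wild-type cells and by 0.00 (SE 0.23) in knockout cells. At day 3 the differences from day 0 were 2.33 (SE 0.26) and 2.25 (SE 0.23). Without wild-type replicate 1 at day 0, *Emp3* in wild-type cells differed by 1.12 and 2.22, and the genotypes at day 0 differed by 0.25. Knockout minus wild-type was 0.36 (SE 0.26), -0.86 (SE 0.23) and 0.28 (SE 0.23) at day 0, 1 and 3, and the value at day 1 was -0.64 with equal medians. *Pmp22*, *Emp2* and *Emp3* were thus all below wild-type at day 1, and *Emp1* was not.

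**Figure D2:**
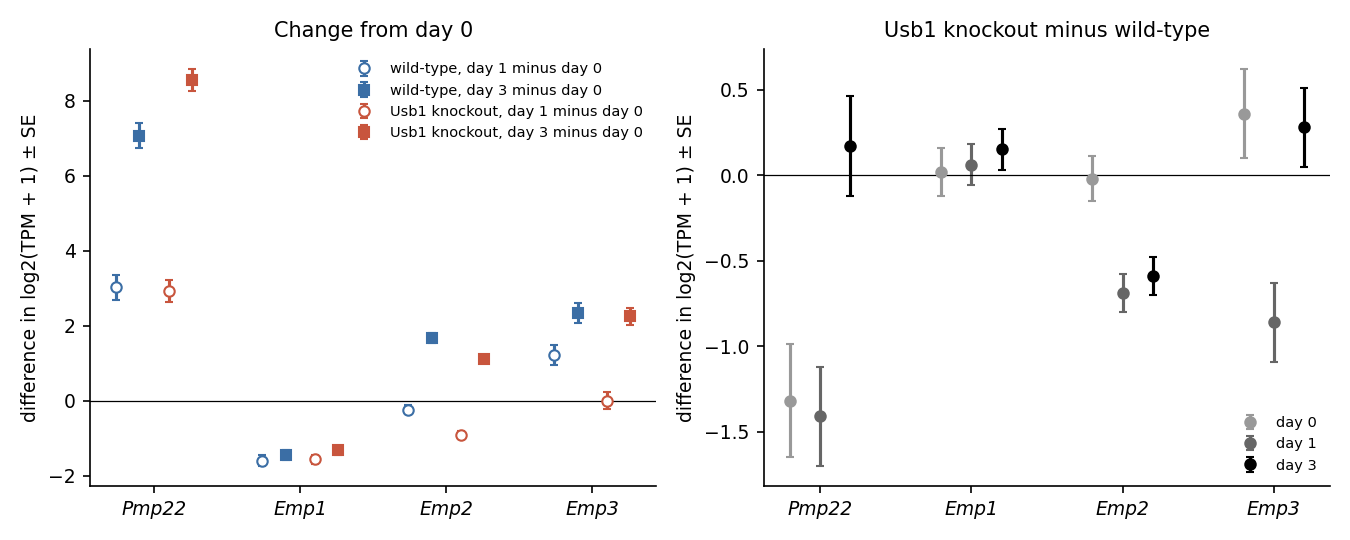
Differences in log2(TPM + 1) with their SE for the 4 genes, as change from day 0 in each genotype (left; circles day 1, squares day 3) and as *Usb1* knockout minus wild-type at each day (right). *Pmp22* is at 7.06 and 8.55 at day 3 on the left, and on the right 3 of the 4 genes are below 0 at day 1.

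Counted by whether libraries overlap, 3 members were above and 1 was below their day 0 level at day 3 in each genotype, where 60.0% of all tested genes did not overlap in wild-type and 56.8% in knockout cells. At day 1 against day 0, 2 members were above and 2 below in wild-type cells (53.3% of all tested genes did not overlap), and 1 was above, 2 were below and 1 overlapped in knockout cells (44.9%). Between knockout and wild-type cells, 1 member was below and 3 overlapped at day 0 (36.6%), 3 were below and 1 overlapped at day 1 (39.8%), and 1 was above, 1 was below and 2 overlapped at day 3 (22.0%). These shares of all genes are large, so the counts of members are not a result about the family.

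The make-up of the family was reversed between day 0 and day 3. In wild-type cells the sum of the 4 genes was 69.7 ± 14.2 TPM (SD, n = 2) at day 0, 60.8 ± 4.01 (n = 3) at day 1 and 544.8 ± 6.99 (n = 3) at day 3. In knockout cells it was 68.9 ± 6.53, 36.4 ± 4.39 and 607.3 ± 12.3 TPM (n = 3 each). At day 1 the libraries overlapped with those of day 0 in wild-type cells and were lower in knockout cells. At day 0 *Emp1* made up 83.7% of the sum in wild-type and 85.4% in knockout cells, and *Pmp22* 4.29% and 0.694%. In wild-type replicate 2 alone the sum was 59.7 TPM at day 0, and *Pmp22* made up 1.77% of it. At day 3 *Pmp22* made up 89.0% and 89.9%, and *Emp1* 3.78% and 3.77%.

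The *Pmp22* shares of the genotypes had the larger ratio at day 0, but differed most in percentage points at day 1, where those of *Emp1* differed by more. *Pmp22* was 47.0% of the sum in wild-type cells, with libraries from 44.4% to 48.6%, and 28.0% in knockout cells, with libraries from 26.5% to 29.0%. *Emp1* was 30.4% in wild-type and 53.1% in knockout cells, so it was still the main member in the knockout alone.

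**Figure D3:**
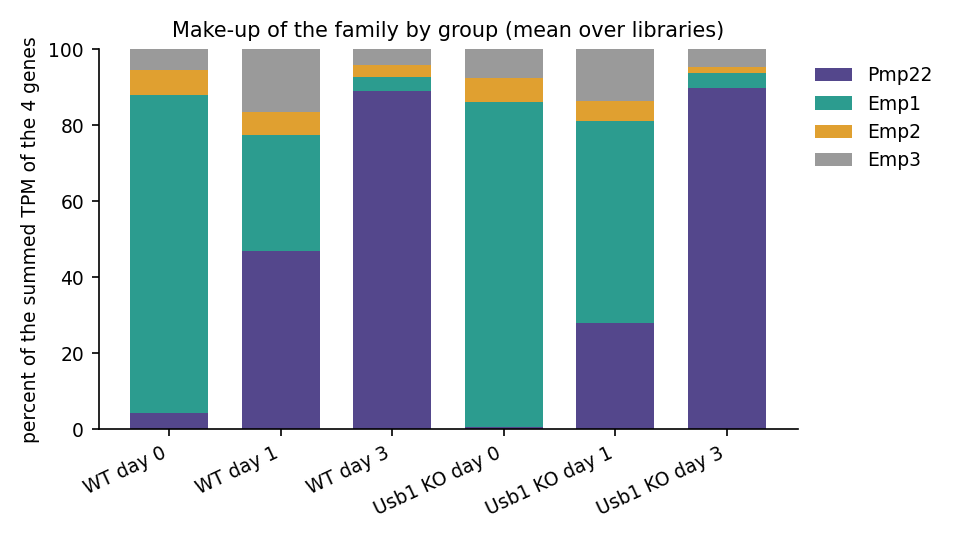
Share of each gene in the summed TPM of the 4 genes (percent), as the mean over the libraries of each of the 6 groups. *Emp1* holds 83.7% and 85.4% at day 0, and *Pmp22* holds 89.0% and 89.9% at day 3.

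In bulk RNA, more cells that express a gene and more RNA per cell cannot be told apart, and markers of other cell types moved at the same days. All 14 primitive and parietal endoderm markers were called higher at day 3 in wild-type and 13 in knockout cells, beside 16.1% and 13.8% of all tested genes. Their summed level went from 518.8 to 528.6 TPM at day 0 to 7399 to 8327 TPM at day 3 in wild-type cells, and from 322.2 to 371.0 TPM to 3428 to 4254 TPM in knockout cells, with 7 of 14 called lower in the knockout at day 3 and 8 of 14 at day 1, where 0.773% and 1.76% of all tested genes were called lower. Other markers were called between the genotypes too, and some calls were at day 0. At day 0, 2 of 7 RA targets and 2 of 14 endoderm markers were lower in the knockout and 0 higher. Of all tested genes, 1.45% were called lower and 1.6% higher at that day. Of 7 neural crest and mesenchyme markers tested, 1 was higher and 1 lower at day 0. At day 1, 1 of these 7 was lower (1.76%) and 0 higher, and at day 3, 1 was higher (0.521%) and 0 lower. At day 3, 3 of 8 embryonic stem cell markers and 3 of 7 trophoblast markers were higher in the knockout and 0 lower (0.521% of all tested genes were higher). At that day 1 of 7 RA targets was lower and 0 higher. At day 1, 3 of 7 RA targets were lower and 0 higher, and 1 of 8 embryonic stem cell markers was higher (0.462%) and 0 lower. The part of these markers in the values of the 4 genes was not tested.

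Simple epithelium markers, the keratins and junction genes of sheet-like epithelium, were called higher in 4 of 6 in each genotype at day 3, with sums of 6553 to 6719 TPM in wild-type and 5671 to 6599 TPM in knockout cells. The 4 were the keratins *Krt7*, *Krt8*, *Krt18* and *Krt19*, while *Cdh1* and *Epcam* were called in neither genotype. Trophoblast markers were called higher in 5 of 7 tested in each genotype, and lower in 1 in wild-type and 0 in knockout cells. Neural crest and mesenchyme markers were called higher in 5 of 7 and lower in 1 in each, and neural progenitor markers higher in 1 of 4 and lower in 2. Of all tested genes, 16.1% were called higher and 9.68% lower at day 3 in wild-type cells, and 13.8% and 8.04% in knockout cells. The part of these markers in the values of the 4 genes was not tested either.

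Other genes of peripheral myelin were counted next, and with few genes on the list the counts are not a result about it. Of 24 Schwann cell and peripheral myelin genes, 15 passed the filter, and at day 3 against day 0, 1 was called higher and 2 lower in wild-type cells (limma, adjusted p under 0.05 and at least 2-fold; 16.1% of all tested genes were called higher and 9.68% lower), and 1 higher and 3 lower in knockout cells (13.8% and 8.04%). The gene called higher in each was *Mbp*, which encodes myelin basic protein and, from the same locus, the golli proteins of other cells, at 10.7 ± 1.303 TPM in wild-type cells at day 3 (difference 2.90, SE 0.20, adjusted p = 1.14e-08) and 14.7 ± 2.30 TPM in knockout cells (difference 2.92, SE 0.18, adjusted p = 2.76e-09). *Ngfr*, a neurotrophin receptor of immature Schwann cells that is also known elsewhere, fell by 3.79 (SE 0.13, adjusted p = 9.77e-12) in wild-type cells. *Pou3f1*, a factor of Schwann cells before myelination and of early embryonic cells, fell by 2.66 (SE 0.23, adjusted p = 1.81e-07).

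*Sox10* and *Egr2*, transcription factors checked as markers of the lineage, had group means under 1 TPM at each day. This did not hold for *Pou3f1*, a transcription factor on the same list. Its means in wild-type cells were 10.27 TPM at day 0 and 0.6898 TPM at day 3. In knockout cells they were 11.96 and 1.708 TPM. *Sox10*, the factor that sets up Schwann cells, was listed at 0 in both wild-type libraries at day 0, reached 0.954 ± 0.304 TPM (SD, n = 3) at day 1 of the same genotype (difference 0.95, SE 0.23, adjusted p = 0.00452, under the 2-fold limit on this scale), and had a day 3 mean of 0.125 ± 0.159 TPM (SD, n = 3) in wild-type and of 0.313 ± 0.311 TPM in knockout cells. *Egr2*, which drives myelination, was at 0.150 ± 0.146 and 0.0879 ± 0.103 TPM at day 3. The summed level of the list was lower at day 3 than at day 0 in each genotype, at 88.9 to 94.7 TPM against 126.2 to 154.5 TPM in wild-type and at 94.8 to 110.6 TPM against 134.8 to 146.9 TPM in knockout cells. The change in this sum was largely that of *Ngfr*. Its means went from 57.15 to 3.208 TPM in wild-type and from 42.18 to 5.253 TPM in knockout cells. The level of *Pmp22* alone was higher than the sum of the list at day 3. At day 1, 2 were called higher and 1 lower in each genotype (9.99% and 3.88% of all tested genes in wild-type, 4.07% and 2.87% in knockout cells). The median difference of the list at day 3 was 0.16 in wild-type and 0.22 in knockout cells, beside 0.10 and 0.03 over all tested genes. Between knockout and wild-type cells, *Gjb1* was called higher at day 0 and *L1cam* lower at day 1, both named after their values were seen. The call at day 0 was lost without any 1 of the knockout day 0 replicates, with no filter and with the libraries of that comparison alone, and the call at day 1 without replicate 2 of either genotype or with a filter at TPM of 5. At day 3 none was called, where 7 of 15 had an unadjusted p under 0.05 and voom called 1.

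Among 42 claudin-fold relatives, 26 passed the filter. At day 3, 5 were called higher and 5 lower in wild-type cells (16.1% and 9.68% of all tested genes). In knockout cells 6 were called higher and 2 lower (13.8% and 8.04%). The genes called higher in both genotypes were *Cldn6*, *Cldn9*, *Cldn7* and *Cldn4*, claudins of tight junctions. *Cldn6* went from 18.1 ± 4.21 to 374.1 ± 35.2 TPM in wild-type cells (difference 4.31, SE 0.15, adjusted p = 7.74e-12) and from 14.1 ± 1.76 to 214.1 ± 27.8 TPM in knockout cells (difference 3.83, SE 0.13, adjusted p = 6.36e-12). *Cldn4* was higher in knockout than in wild-type cells at day 0, at 113.6 ± 6.82 TPM against 38.3 ± 2.44 TPM (difference 1.54, adjusted p = 1.71e-07), and at day 3 it was at 287.1 ± 26.7 TPM against 213.0 ± 17.1 TPM. *Cacng8*, an auxiliary subunit of AMPA receptors, fell by 1.56 (SE 0.22, adjusted p = 2.42e-05) and *Tmem235* by 1.31 (SE 0.35, adjusted p = 0.00522) in wild-type cells. *Pmp22* at day 3 was at a higher level, in TPM, than each of these relatives. The median difference of the list at day 3 was 0.35 in wild-type and 0.41 in knockout cells.

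At day 1, 8 of the 26 relatives were called higher and 0 lower in wild-type cells (9.99% and 3.88% of all tested genes), and 5 and 0 in knockout cells (4.07% and 2.87%). *Tmem47*, *Cacng6*, *Cldn3* and *Cldn9* were called in each genotype, and are named here after their values were seen. With the median of each library made equal, the 8 in wild-type cells were 5. Between knockout and wild-type cells, 1 relative was called higher and 2 lower at day 0 (1.6% and 1.45% of all tested genes), 1 higher at day 1 (0.462%) and none at day 3 (0.521% of all tested genes were called higher and 0.773% lower), where 9 were at an unadjusted p under 0.05 in limma and voom on recovered reads called 1.

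Of 17 genes for partners and quality control of these proteins, 16 passed the filter. At day 3, 4 were called higher in each genotype (16.1% of all tested genes in wild-type and 13.8% in knockout cells). In wild-type cells 1 was called lower (9.68%) and in knockout cells 0 (8.04%). The 4 were *F11r*, which encodes the junction protein JAM-A, *Ocln*, which encodes occludin, *Itgb1*, the integrin subunit through which EMP2 is known to act, and *Flot1*, which encodes a membrane raft protein. *Itgb1* was the most abundant of these, at 407.1 ± 38.8 TPM (n = 2) at day 0 and 1046 ± 25.4 TPM (n = 3) at day 3 in wild-type cells (difference 1.36, SE 0.09, adjusted p = 4.98e-09). *Ocln* went from 2.90 ± 0.810 to 17.8 ± 1.16 TPM (difference 2.28, SE 0.17, adjusted p = 2.42e-08). At day 1 against day 0, 1 was called higher in wild-type (9.99% of all tested genes) and 0 in knockout cells (4.07%). In the knockout cells 7 had an unadjusted p under 0.05 and voom called 1. None of the 16 was called between the genotypes at any day, where at day 1 voom called 0 and 12 had an unadjusted p under 0.05, all lower in the knockout. At day 0 and day 3, 8 each had an unadjusted p under 0.05 and voom called 0.

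The Hippo and TEAD list holds the genes of the pathway and the targets it shares with growth control, some of them known in peripheral nerve. All 21 passed. At day 3, 10 were called higher and 1 lower in wild-type cells (16.1% and 9.68% of all tested genes). In knockout cells 11 were called higher and 1 lower (13.8% and 8.04%). *Cyr61*, a target of YAP and TEAD, went from 20.6 ± 4.98 to 651.5 ± 63.3 TPM in wild-type cells (difference 4.93, SE 0.14, adjusted p = 1.54e-12) and from 22.7 ± 1.56 to 397.0 ± 47.1 TPM in knockout cells (difference 4.07, SE 0.13, adjusted p = 2.78e-12). *Axl*, a receptor kinase, rose by 2.91 and 3.14, *Vgll3*, a cofactor of TEAD, by 2.96 and 2.38, and *Tead3*, a TEAD factor, by 2.62 and 2.41 in wild-type and knockout cells, with adjusted p from 3e-10 to 1.6e-07. At day 1, 3 were called higher and 1 lower in wild-type cells (9.99% and 3.88% of all tested genes) and 1 and 1 in knockout cells (4.07% and 2.87%). The median of the list at day 3 was 0.87 in wild-type and 1.26 in knockout cells, beside 0.10 and 0.03 over all tested genes. None of the 21 was called between the genotypes; at day 0, 1 and 3, 8, 15 and 9 had an unadjusted p under 0.05, and voom called 1 at day 0 and 0 at the other days.

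**Figure D4:**
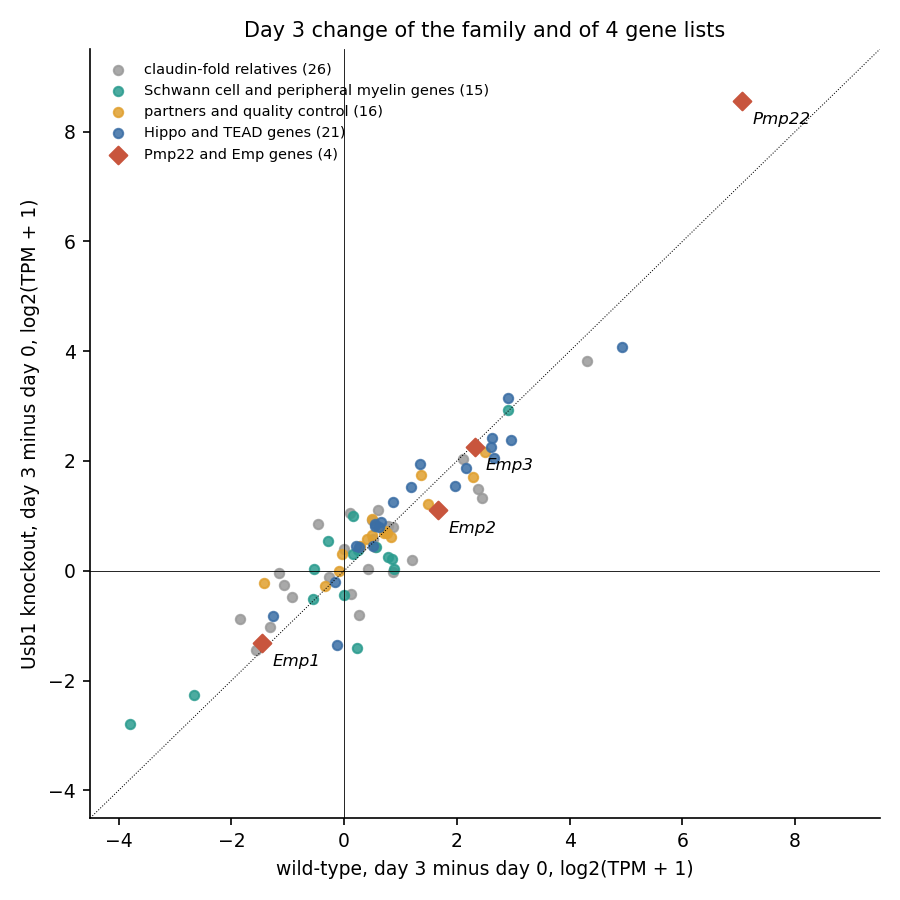
Difference in log2(TPM + 1) from day 0 to day 3 in wild-type cells (x axis) against knockout cells (y axis), with a point for each tested gene of the 4 lists and a diamond for each of the 4 family genes. The dotted line is equality. *Pmp22* lies at 7.06 and 8.55, beyond the point of *Cyr61* at 4.93 and 4.07.

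The genes whose course over the 17 libraries was most like that of each member, by Pearson's r on the log2(TPM + 1) scale and as a description only, were different for each member. For *Pmp22* they were *Plin2*, which coats lipid droplets, *Zfp821*, *Soat1*, which esterifies cholesterol, *Fstl1*, a secreted glycoprotein, and *Chst14*, a sulfotransferase of dermatan sulfate, with r of 0.992 to 0.996. For *Emp1* they were *Gjb5*, a gap junction connexin, *Zfp59*, *Enox1*, *Hmces* and *Mapt*, which encodes tau, with r of 0.967 to 0.977. For *Emp2* they were *Lama1* and *Lamc1*, laminin chains, the lysosomal enzymes *Gaa* and *Man2b1*, and *Lgr4*, a receptor for R-spondins, with r of 0.974 to 0.989. For *Emp3* they were *Gm15867*, *Olfml1*, *Zfp608*, *D630003M21Rik* and *Clic1*, with r of 0.958 to 0.968. The 17 libraries share 2 genotypes and 3 days, so many genes have high values, and ranking by Spearman's rho changed the place of most: *Chst14* held place 434 for *Pmp22* by rho. *Lama1* is also on the list of endoderm markers.

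Between members, *Pmp22* and *Emp3* had r of 0.92 (rho 0.865), *Emp2* and *Emp3* 0.81 (rho 0.583) and *Pmp22* and *Emp2* 0.76 (rho 0.51). *Emp1* had r of -0.663 (rho -0.382) with *Pmp22* and -0.537 (rho -0.277) with *Emp3*, while with *Emp2* r was -0.105 and rho 0.353, of the opposite sign. The 6 groups, not 17 independent points, set these values.

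The members were also set beside their neighbours on the chromosome. The nearest protein-coding genes of *Pmp22* were *Tekt3*, 34017 bases away and at 0.213 TPM or less in the mean of each group, and *Hs3st3b1*, 726244 bases away, which rose by 2.31 in wild-type (SE 0.15, adjusted p = 5.94e-09) and 2.76 in knockout cells (SE 0.13, adjusted p = 2.36e-10) from day 0 to day 3. Near *Emp1*, *Pbp2* and *Grin2b* did not pass the filter. Near *Emp2*, *Atf7ip2* fell by 1.75 in wild-type cells (SE 0.20, adjusted p = 2.55e-06) and had a difference of -0.89 (SE 0.17, adjusted p = 0.000529) in knockout cells, and *Tekt5* had differences of 0.51 (SE 0.32) and -0.42 (SE 0.29). *Tmem143*, 609 bases from *Emp3*, had a difference of -0.13 (SE 0.13) in wild-type and -0.75 (SE 0.11, adjusted p = 5.83e-05) in knockout cells, and *Ccdc114* differences of -0.04 (SE 0.17) and 0.52 (SE 0.15, adjusted p = 0.00886).

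The promoters show which sequences lie before these genes, and are given because the members differ so much in their course. The 250 bases before a RefSeq start site (GRCm38.p6) were searched on both strands for 2 forms of the half-site of retinoic acid receptors, AGGTCA and AGTTCA. Other forms of the half-site were not searched. These half-sites were also searched as direct repeats with a spacer of 5 bases, or AGGTCA with one of 2. The other motifs were the TEAD motif GGAATG, the SOX motifs ACAATG and ACAAAG, and TATAAA. Capitals mark the matches, read in the direction of the gene.
*Pmp22*, first start site (chr11:63128732-63128981, + strand): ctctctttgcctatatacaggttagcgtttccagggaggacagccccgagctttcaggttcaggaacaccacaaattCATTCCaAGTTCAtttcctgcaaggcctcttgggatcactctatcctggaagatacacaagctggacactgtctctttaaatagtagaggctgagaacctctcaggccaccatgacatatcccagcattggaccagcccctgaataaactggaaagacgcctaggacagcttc
*Pmp22*, last start site (chr11:63132553-63132802, + strand): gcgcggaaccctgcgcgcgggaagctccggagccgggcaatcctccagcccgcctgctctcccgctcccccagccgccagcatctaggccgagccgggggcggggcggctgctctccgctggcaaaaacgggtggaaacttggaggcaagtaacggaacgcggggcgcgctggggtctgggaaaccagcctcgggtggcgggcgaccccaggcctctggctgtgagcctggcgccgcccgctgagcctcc
*Emp1*, first start site (chr6:135362681-135362930, + strand): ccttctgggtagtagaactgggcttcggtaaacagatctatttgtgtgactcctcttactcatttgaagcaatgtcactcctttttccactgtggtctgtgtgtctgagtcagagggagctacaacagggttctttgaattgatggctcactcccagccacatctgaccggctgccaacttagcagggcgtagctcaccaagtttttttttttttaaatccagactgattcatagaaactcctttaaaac
*Emp2*, only start site listed (chr16:10313969-10314218, - strand): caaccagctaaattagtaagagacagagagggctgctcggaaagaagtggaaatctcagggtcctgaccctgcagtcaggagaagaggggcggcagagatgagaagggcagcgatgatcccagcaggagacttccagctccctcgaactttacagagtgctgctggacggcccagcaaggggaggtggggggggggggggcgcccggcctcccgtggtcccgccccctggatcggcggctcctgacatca
*Emp3*, first start site (chr7:45921427-45921676, - strand): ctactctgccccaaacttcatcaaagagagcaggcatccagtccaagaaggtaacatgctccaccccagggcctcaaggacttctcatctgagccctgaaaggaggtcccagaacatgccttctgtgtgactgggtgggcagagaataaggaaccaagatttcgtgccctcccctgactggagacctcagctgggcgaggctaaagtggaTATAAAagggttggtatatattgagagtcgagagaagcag
*Pmp22* has 4 start sites in RefSeq, and GC content went from 48.8% before the first to 73.6% before the last. The first holds the half-site AGTTCA from 166 to 161 bases before the start and GGAATG on the opposite strand from 173 to 168 bases before it. *Emp3* has TATAAA from 40 to 35 bases before its first start. Of the annotated GENCODE transcripts, 0 matched the first transcribed bases at that start. The second start site of *Emp3* was matched by 1 transcript and held no searched motif. Neither *Emp1* nor *Emp2* held a match, and no other searched motif was found at any start site of the 4 genes. Over 32851 promoters of this length, 11.8% hold AGTTCA, 12.6% GGAATG and 12.4% TATAAA, so such single matches are common. The direct repeats are rare, at 0.00913% to 0.0213%. TPM per gene does not tell which of the start sites of *Pmp22* or of *Emp3* was used.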

How the data were processed

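RNA-seq was made by the authors for 17 samples of R1 cells, described as biological replicates, with NEBNext Ultra libraries on an Illumina NovaSeq platform. The deposited values are TPM, calculated by the authors from gene length and read count. The submitters' processing notes name HISAT2 2.1.0, StringTie 1.3.6 and GRCm38.p6.

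Reads were recovered from TPM with GENCODE M21 exon lengths (54495 of 54532 genes matched, and 95.9% to 96.7% of values were whole within 0.01). Intervals from reads would cover counting error only. Genes that reached a TPM of 1 in 2 or more libraries were tested by limma 3.58.1 (R 4.3.3) with a variance trend, on log2(TPM + 1) and 6 group means, with Benjamini-Hochberg adjustment. Calls needed adjusted p under 0.05 and at least 2-fold. limma was also run on simulated reads with a common spread for all genes, in which only genes with enough reads were changed. That run does not cover genes with few reads. Python 3.11.15, numpy 2.4.6, pandas 2.3.3, biopython 1.88 and matplotlib 3.10.9 made the tables and figures.

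The members and the lists were chosen with earlier results of these data known. The named genes are the members, up to 4 largest rises and 2 largest falls per list among genes called in both genotypes at day 3, the 5 genes most like each member, the nearest protein-coding genes, and *Usb1* and cell type markers (*Sox10* and *Egr2* among them) as checks. Promoter sequences are from RefSeq. Alternatives were the pseudocount, the filter, scaling, the libraries fitted, a replicate block, voom, the fold threshold and leaving out each library. Replicate numbers were treated as names only.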

Additional observations from a re-analysis of the deposited data

Results flagged for a closer look

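Of the 17 list genes named by the rule, 2 were called for a difference between the genotypes in their change from day 0 to day 3, by the test of that difference in limma (adjusted p over all genes tested, of which 2.42% were called). *Cldn4*, a claudin of tight junctions, rose by 2.44 (SE 0.09) in wild-type and 1.33 (SE 0.08) in knockout cells, and knockout minus wild-type was -1.12 (SE 0.12, adjusted p = 0.000142). Its day 0 level was already higher in the knockout. *Ngfr*, a neurotrophin receptor, fell by 3.79 (SE 0.13) in wild-type and by 2.79 (SE 0.12) in knockout cells, and knockout minus wild-type was 1.01 (SE 0.18, adjusted p = 0.00452). Over the whole of the 4 lists, 6 of 78 tested genes were called. The other 4, named after their values were seen, were *Tead4* with knockout minus wild-type at -1.23 (SE 0.19), *Cacng6* at 1.31 (SE 0.32), *Gjb1* at -1.63 (SE 0.37) and *P2rx7* at 1.20 (SE 0.27), with adjusted p from 0.00197 to 0.0269. Of 53 other cell type markers tested, 10 were called.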

How the results depend on the processing

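The differences of at least 1 between groups for the 4 genes, 21 in number, kept their direction in all 525 alternatives, and among smaller ones *Emp1* at day 0 and day 1 and *Emp2* at day 0 between the genotypes changed direction, while *Emp3* in knockout cells at day 1, at 0.00, took either sign, as with -0.08 under equal medians and 0.04 under voom. For *Pmp22* at day 0 and *Emp3*, few reads limit the precision. Without wild-type replicate 1 at day 0, the *Pmp22* difference between the genotypes at day 0 was -0.50 in place of -1.32. Counts of called list genes were more dependent on the settings, and the causes were not tested. In what follows, counts are in the order wild-type day 1 and day 3 against day 0, knockout day 1 and day 3 against day 0, and knockout against wild-type at day 0, 1 and 3. Without the fold threshold, the construction of which admits smaller changes, the claudin-fold relatives called were 13, 17, 13, 15, 6, 7 and 5, the Schwann cell genes 6, 7, 6, 8, 5, 3 and 3, the partners 8, 13, 7, 13, 3, 9 and 5, and the Hippo and TEAD genes 14, 17, 11, 20, 3, 11 and 5.

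With a pseudocount of 0.1 or with voom, relatives called in knockout cells at day 1 were 9 each, Schwann cell genes were 6 and 7 in wild-type cells at day 1, 5 each at day 3 and 1 each between the genotypes at day 3, and partners in knockout cells at day 1 were 1 each. With voom, relatives between the genotypes were 4 at day 1 and 1 at day 3, Schwann cell genes 3 at day 0 and 2 at day 1, and Hippo and TEAD genes 1 at day 0. Relatives called in wild-type cells at day 1 were 4 with the filter at TPM of 5, and 5 with quantile normalization and with equal medians, and with equal medians 2 were called between the genotypes at day 1. Quantile normalization left 0 partners in wild-type cells at day 1. With the libraries of the comparison alone, 1 relative and 0 Schwann cell genes were called between the genotypes at day 0. Schwann cell genes there were 0 with no filter, and 0 at day 1 with the filter at TPM of 5. With equal medians, 2 members did not overlap between the genotypes at day 0.

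Leaving out 1 library gave 3 to 5 relatives in knockout cells at day 1 (3 without knockout day 0 replicate 2) and 1 to 2 between the genotypes at day 1 (2 without wild-type day 1 replicate 3). For Schwann cell genes it gave 3 to 6 in wild-type cells at day 3 (6 without wild-type day 0 replicate 2), 0 to 3 between the genotypes at day 0 (2 and 3 without wild-type replicate 1 and 2, and 0 without any 1 of the knockout replicates) and 0 to 2 at day 1 (2 without wild-type replicate 1, and 0 without wild-type or knockout replicate 2). Partners were 0 to 1 in wild-type cells at day 1 (0 without wild-type day 0 replicate 1) and in knockout cells at day 1 (1 without knockout day 0 replicate 1 or day 1 replicate 2). Members that did not overlap between the genotypes at day 0 were 1 to 2 (2 without knockout replicate 1 or either wild-type replicate).

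Deviations of libraries with the same replicate number had a mean r of -0.00517 (-0.13 to 0.124 over 40 pairs). Those with different numbers had 0.00257 (-0.124 to 0.106 over 80 pairs). The 2 ranges are alike, but such values cannot show whether samples of the same number were handled together. With a replicate block, the Hippo and TEAD genes called at day 3 were 11 in wild-type and 12 in knockout cells, and none of 28 list counts moved by over 1.5 times.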
